A study of Mus musculus with 8 samples.

Results

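The regions described here were the 1051 PU.1 ChIP-Seq peaks that were called both with and without wild-type PU.1 and at which no CEBPA peak was called. They were chosen by the peak calls themselves: a PU.1 peak of the PuER line was included when it overlapped a PU.1 peak of the empty-vector line by at least 1 bp and overlapped no CEBPA peak of either line. They made up 6.70% of the 15683 PU.1 peaks of the PuER line and 35.4% (95% interval 33.7 to 37.1) of the 2969 PU.1 peaks called in both lines. The other 1918 peaks called in both lines overlapped a CEBPA peak, which was called in both lines at 1578 of them. These counts describe the choice and are not a result.

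The peaks came from X18.1.1, a cell line from a radiation-induced murine acute myeloid leukaemia in which one *Pu.1* allele is deleted and the other encodes PU.1 with a substituted residue where it contacts DNA and with part of its PEST region missing. Cells were transduced with a retrovirus carrying either an empty vector (PU.1−, mutant PU.1 only) or PuER, wild-type PU.1 fused to an oestrogen receptor domain (PU.1+), selected with puromycin, and each line used for ChIP-Seq was 1 clone. Both lines kept the mutant allele, and both were incubated in 100 nM 4-hydroxytamoxifen for 2 h. There was 1 library for each antibody and line, so differences between the lines have no replicate check, and a difference between clones cannot be told apart from an effect of PuER. The antibody against PU.1 was the same in both lines, and which form of PU.1 it recovered at a given peak of the PU.1+ line was not measured. The lists gave 5288 PU.1 peaks in PU.1− cells, and 26119 and 20583 CEBPA peaks in PU.1− and PU.1+ cells. Each peak was a 400-bp interval of the mm10 (GRCm38) mouse genome without height, score or read count, so depth is unknown. All intervals given below are 95% intervals that cover counting error only, exact (Clopper-Pearson) for a share and Newcombe's for a difference of shares. For a ratio of 2 counts, the exact interval of the first count as a share of their sum was converted to a ratio. Counts of peaks are not replicates of a condition.

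PU.1 is a transcription factor of the ETS family, whose members bind DNA around a GGAA core and differ in the bases they prefer beside it. PU.1 prefers a purine-rich stretch before the core, whereas ETS1, FLI1 and related factors prefer C followed by A or C. In macrophages and B cells PU.1 binds many distal regulatory elements beside factors such as CEBPA, RUNX1 and IRF8, and with IRF proteins it forms a complex on a composite element in which an ETS and an IRF motif lie side by side. CEBPA is a leucine-zipper factor that shares many myeloid elements with PU.1.

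Examples of the sequences under these peaks are shown with the site in capitals, because the comparisons below turn on the letters around GGAAGT. All are read 5′ to 3′ from the RefSeq GRCm38 reference, on the strand named, around the peak centre of the PU.1+ library. Windows that met an annotated untranslated region were shortened. The first 4 held GAGGAAGT, here called the PU.1-type site. They lay in introns of *Adgb* (chr10:10469325-10469404, − strand) and *Piezo1* (chr8:122547943-122548022, − strand) and at the promoters of *Cd53* (chr3:106790125-106790154, + strand) and *Coro1a* (chr7:126702515-126702594, − strand).

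Adgb intron: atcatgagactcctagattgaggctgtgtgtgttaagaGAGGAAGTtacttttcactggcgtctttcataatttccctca
Piezo1 intron: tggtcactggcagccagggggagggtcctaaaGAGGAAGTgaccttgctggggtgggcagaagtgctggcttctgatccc
Cd53 promoter: gcgagaagagtGAGGAAGTgagactgagtg
Coro1a promoter: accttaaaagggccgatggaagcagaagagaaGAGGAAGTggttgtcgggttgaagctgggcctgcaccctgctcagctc

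The next 4 held CAGGAAGT or CCGGAAGT, here called the ETS1-type site. They lay in an intron of *Fgd2* (chr17:29362090-29362169, − strand), upstream of *Ndufaf6* (chr4:11077054-11077133, + strand), at the start of *Psmg3* (chr5:139826872-139826901, − strand) and between *Cd79b* and *Gh* (chr11:106305943-106306022, − strand).

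Fgd2 intron: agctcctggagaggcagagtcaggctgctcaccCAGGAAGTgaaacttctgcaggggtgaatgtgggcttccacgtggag
Ndufaf6 promoter: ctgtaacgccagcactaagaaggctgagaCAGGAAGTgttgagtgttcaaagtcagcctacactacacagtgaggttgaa
Psmg3 promoter: acggacaggaaCCGGAAGTtctcgccggga
Cd79b intergenic: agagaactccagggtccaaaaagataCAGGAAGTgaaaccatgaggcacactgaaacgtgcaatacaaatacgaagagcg

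The next 3 held an ETS-IRF composite element, here GGAAGTGAAA. They lay upstream of *Plcg2* (chr8:117475974-117476053, + strand), at an internal transcript start of *Psmb8* (chr17:34198341-34198370, − strand) and in an intron of *Celf2* (chr2:6557132-6557211, − strand). The *Fgd2* and *Cd79b* sequences above held the same element, overlapping their ETS1-type sites. The last, at a promoter of *Ccdc12* (chr9:110666105-110666184, − strand), held a RUNX site (TGTGGT) with an ETS site on the opposite strand, both in capitals.

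Plcg2 intergenic: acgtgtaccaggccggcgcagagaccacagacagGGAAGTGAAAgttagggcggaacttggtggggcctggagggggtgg
Psmb8 promoter: tctgcgacaaGGAAGTGAAAgcgaaagcca
Celf2 intron: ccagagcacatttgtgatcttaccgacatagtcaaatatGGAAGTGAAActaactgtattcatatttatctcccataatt
Ccdc12 promoter: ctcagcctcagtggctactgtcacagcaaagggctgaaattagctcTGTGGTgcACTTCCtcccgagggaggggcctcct

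Taken over promoters and distal regions together, the constitutive PU.1 peaks without CEBPA carried ETS1-type sites more often than the other PU.1 peaks and carried PU.1-type sites about as often as ETS1-type sites. Sites were exact matches on either strand in the central 80 bp of the peak. An ETS1-type site was present at 175 of the 1051 peaks (16.7%, 14.4 to 19.04), beside 6.43% of all PU.1 peaks of the PU.1+ line. It was present at 8.65% of the constitutive peaks with CEBPA, a difference of 7.996 percentage points (5.48 to 10.6), and at 5.57% of the 9482 PU.1+-only peaks without CEBPA, which were called in PU.1+ but not in PU.1− cells, a difference of 11.1 points (8.90 to 13.5). In 80-bp windows centred 2000 bp to either side of the 1051 peaks it occurred in 0.476%. The class that came closest was the 1035 PU.1−-only peaks without CEBPA, which held the site at 12.4% (10.4 to 14.5). With the constitutive peaks centred as in the PU.1− library, as these peaks have to be, the share was 17.5%, a difference of 5.09 points (2.02 to 8.15). Unless stated, values of PU.1−-only peaks below use centres of the PU.1− library, and those of all other classes use centres of the PU.1+ library.

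A PU.1-type site was present at 162 of the 1051 peaks (15.4%, 13.3 to 17.7), beside 15.2% of all PU.1 peaks of PU.1+ cells. The share was 17.3% among the PU.1+-only peaks without CEBPA, and the interval of that difference included 0 (−1.85 points, −4.05 to 0.576). It was 4.15% among the PU.1−-only peaks without CEBPA. With the constitutive peaks centred as in the PU.1− library, their share was 12.6%, a difference of 8.48 points (6.13 to 10.9) from the PU.1−-only peaks. The ratio of peaks with a PU.1-type site to peaks with an ETS1-type site was thus 0.926 (0.743 to 1.15) at the constitutive peaks without CEBPA. It was 1.48 at those with CEBPA, 3.10 at the PU.1+-only peaks and 0.336 at the PU.1−-only peaks. The constitutive peaks without CEBPA lay between both groups of line-specific peaks in this ratio. With the centres of the PU.1− library, their ratio was 0.724 (0.574 to 0.911). Only 6 of the 1051 peaks held both types, and the intervals of the ratio count such peaks under each type.

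**Figure D1:**
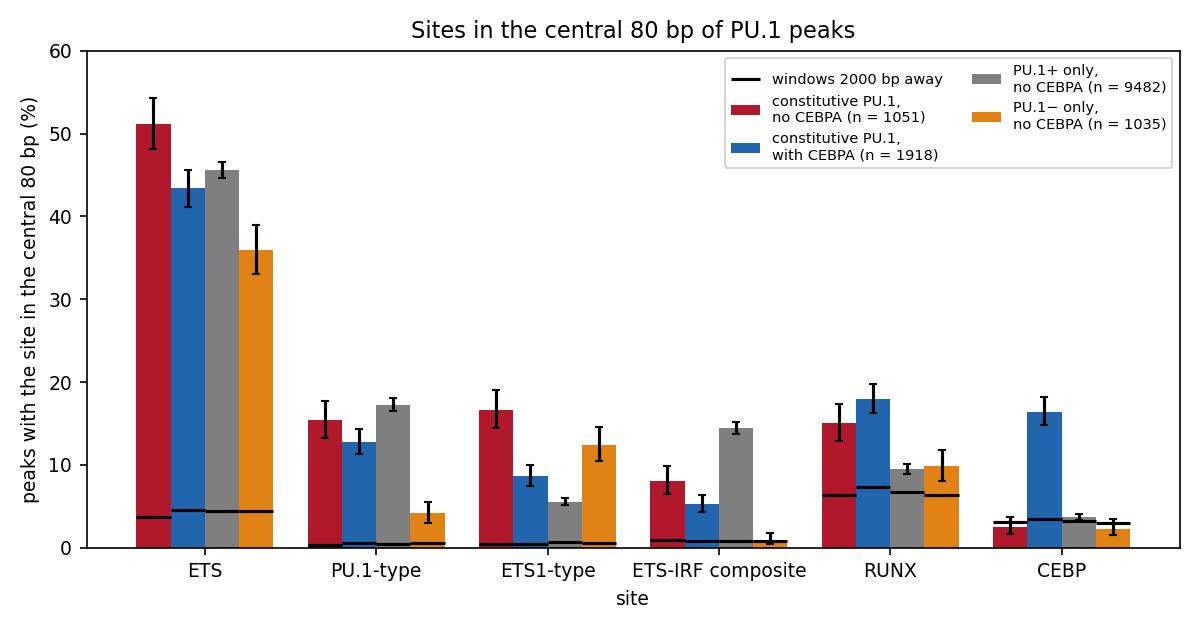
Share of PU.1 peaks with each site in the central 80 bp (y axis, %) for 6 sites (x axis) and 4 peak classes (bars), with exact 95% intervals. Black lines mark the share in windows 2000 bp away. PU.1−-only peaks are centred as in the PU.1− library and the other classes as in the PU.1+ library. The ETS1-type bar is highest for the constitutive peaks without CEBPA (16.7%), and the CEBP bar is high for the constitutive peaks with CEBPA alone (16.4%).

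Any ETS site, counted as GGAAGT, was present at 538 of the 1051 peaks (51.2%, 48.1 to 54.3), beside 43.5% of all PU.1 peaks of PU.1+ cells and 3.71% of the windows 2000 bp away. The share was 43.4% among the constitutive peaks with CEBPA, a difference of 7.81 points (4.06 to 11.5). The interval of this difference included 0 at promoters (4.38 points, −4.21 to 12.9) and with AGGAA or CGGAA as the site (3.12 points, −0.240 to 6.40). The share was 45.6% among the PU.1+-only peaks without CEBPA, a difference of 5.58 points (2.39 to 8.75) that did not hold under other settings: it was 1.93 points (−1.26 to 5.13) with the constitutive peaks centred as in the PU.1− library, and −0.241 points (−3.10 to 2.45) with the shorter sites. It was 35.9% among the PU.1−-only peaks without CEBPA. With the constitutive peaks centred as in the PU.1− library, their share was 47.5%, a difference of 11.6 points (7.36 to 15.8) from the PU.1−-only peaks. Of the 1051 peaks, 466 held 1 ETS site in the central 80 bp and 72 held more. In the whole 400 bp, 284 (27.02%) held none, beside 35.5% of all PU.1 peaks of PU.1+ cells. Of these 284, 207 held the 4 bases GGAA in the central 80 bp, a share that was not taken in flanking windows. GGAA was absent from the central 80 bp at 11.1% of the 1051 peaks and 8.88% of all PU.1 peaks of PU.1+ cells. The most ETS sites in any 1 peak was 7.

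The bases around GGAAGT also differed between the classes. Among the 612 ETS sites in the central 80 bp of the 1051 peaks, the base after GGAAGT was G at 79.2%, whereas it was G at 65.6% of sites in the constitutive peaks with CEBPA, 57.5% in the PU.1+-only peaks and 75.9% in the PU.1−-only peaks. Of the 601 sites whose preceding bases were also in the window, 169 (28.1%) were GAGGAAGT and 168 (28.0%) CAGGAAGT. Next came AAGGAAGT (12.3%), TAGGAAGT (5.49%) and GCGGAAGT (5.32%). In the PU.1+-only peaks GAGGAAGT also came first (34.4% of 4942 sites), but AGGGAAGT (13.0%) and GGGGAAGT (12.8%) exceeded CAGGAAGT (10.7%). Each of AGGGAAGT and GGGGAAGT made up 3.49% of the sites in the constitutive peaks without CEBPA.

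The sequences of 8 bases most enriched over the flanking windows were AGGAAGTG, at 334 of the 1051 peaks (31.8%, against 0.428% of flanking windows), followed by GGAAGTGG at 194 peaks, GAGGAAGT at 162, CAGGAAGT at 163, GGAAGTGA at 144, ACAGGAAG at 135, AACAGGAA at 127, GAAGTGAA at 124, AGAGGAAG at 133 and CACTTCTG at 110. AGGAAGTG also ranked first in the constitutive peaks with CEBPA, but at 20.9% of peaks, and second in the PU.1+-only peaks at 17.2%. Since these sequences overlap, their counts are not additive.

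Turned around, the letters of the site went with how often a PU.1 peak of PU.1+ cells was also called in PU.1− cells. Of the 10533 PU.1 peaks of PU.1+ cells that overlapped no CEBPA peak (67.2% of all), 9.98% were also called in PU.1− cells. The share was 24.9% (21.7 to 28.3) for the 703 peaks with an ETS1-type site and 9.01% (7.72 to 10.4) for the 1799 with a PU.1-type site. By the pair of bases before GGAAGT, with all locations pooled, it ran from 6 of 224 peaks with TGGGAAGT (2.68%, 0.989 to 5.74) to 30 of 70 with GCGGAAGT (42.9%, 31.1 to 55.3). Of the 32 GCGGAAGT sites in the constitutive peaks, 24 were at promoters. In distal peaks there were 8 such sites in the constitutive and 26 in the PU.1+-only class, beside 144 and 478 CAGGAAGT sites, so that GCGGAAGT did not stand out from CAGGAAGT there. With GTGGAAGT it was 18.4% (12.8 to 25.2) and with AGGGAAGT 3.25% (2.02 to 4.92). After GGAAGT, a following G gave 14.3% (13.1 to 15.6) and a following A 3.96% (2.67 to 5.64). Peaks with CEBPA were called in both lines more often (37.2%), and the order of the types was the same there, with 54.2% (48.5 to 59.9) for an ETS1-type and 42.3% (38.3 to 46.5) for a PU.1-type site.

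Location moved with this share, so it was also taken at promoters and elsewhere. Of the peaks without CEBPA, 20.9% (18.7 to 23.2) of the 1280 at promoters and 8.47% (7.91 to 9.06) of the 9253 distal peaks were called in both lines. Among distal peaks alone it was 23.2% (19.9 to 26.8) with an ETS1-type site and 7.38% (6.14 to 8.78) with a PU.1-type site. At promoters it was 36.3% (26.4 to 47.0) and 21.0% (15.8 to 27.1). The intervals for both types did not overlap among distal peaks and overlapped slightly at promoters. With all locations pooled, the highest share of 7 sites was that of GGGCGG, the GC box bound by SP and KLF factors, with 64 of 177 peaks (36.2%, 29.1 to 43.7), made up of 43.0% at promoters and 29.7% elsewhere. The lowest was that of the ETS-IRF composite element, with 85 of 1459 peaks (5.83%, 4.68 to 7.15). It was also the lowest among distal peaks (5.22%, 4.08 to 6.55), whereas at promoters it was 11.8% (6.88 to 18.4) and CEBP sites were lower, with 3 of 37 peaks (8.11%, 1.70 to 21.9).

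**Figure D2:**
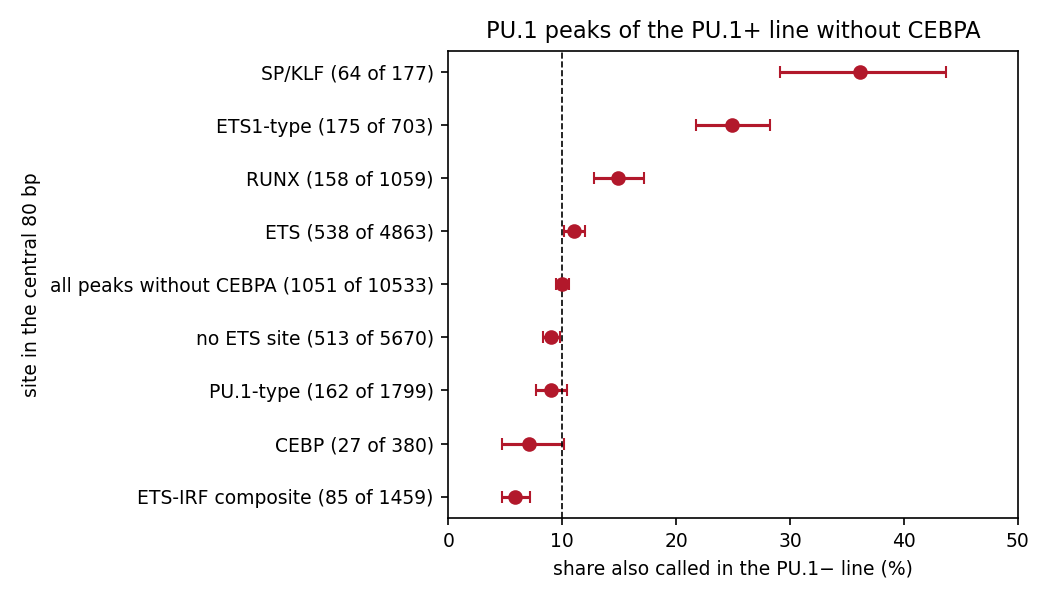
Share of PU.1 peaks of PU.1+ cells without CEBPA that were also called in PU.1− cells (x axis, %), by the site in the central 80 bp (y axis, with counts). Points are shares with exact 95% intervals, and the dashed line is the share over all 10533 peaks (9.98%). Peaks with an ETS1-type site lie at 24.9% and those with a PU.1-type site at 9.01%.

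The ETS-IRF composite element was present at 85 of the 1051 peaks (8.09%, 6.51 to 9.90), beside 11.8% of all PU.1 peaks of PU.1+ cells and 0.951% of the windows 2000 bp away. This was 6.40 points less than in the PU.1+-only peaks without CEBPA, which held it at 14.5% (difference −6.40, −8.07 to −4.47). It was more than in the constitutive peaks with CEBPA (5.32%, difference 2.77 points, 0.912 to 4.79), although not separably so at promoters (0.793 points, −3.37 to 4.91), and in the PU.1−-only peaks, where 0.966% held it. The peak with the element at *Psmb8*, an interferon-inducible proteasome subunit, was centred 17 bp upstream of an internal transcript start. That at *Plcg2*, a phospholipase of immune receptor signalling, was centred 22278 bp upstream of the gene.

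RUNX sites (TGTGGT or TGCGGT) were present at 158 of the 1051 peaks (15.03%, 12.9 to 17.3), beside 11.5% of all PU.1 peaks of PU.1+ cells and 6.33% of the flanking windows. The constitutive peaks with CEBPA held them at 17.9%, 2.90 points more (difference −2.90, −5.60 to −0.0799). The interval of this difference included 0 under 5 of 8 alternatives, such as distal peaks alone (−1.70 points, −4.81 to 1.60) and an overlap of at least 50% (−2.11 points, −4.86 to 0.713). The PU.1+-only peaks held them at 9.50%, a difference of 5.53 points (3.41 to 7.89), which was 6.99 points (4.46 to 9.83) among distal peaks and 2.41 points (−1.15 to 6.87) at promoters. Among the 1051 peaks, RUNX sites were found at 12.6% (9.95 to 15.7) of those with an ETS site and 17.5% (14.4 to 21.1) of those without. At the constitutive peaks with CEBPA these shares were 13.6% (11.3 to 16.1) and 21.3% (18.9 to 23.8). Of the 1051 peaks, 16.7% of the distal and 10.1% of the promoter peaks held RUNX sites, a difference of −6.60 points for promoters (−10.7 to −1.74).

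CEBP sites (TTGCNNAA) were present at 27 of the 1051 peaks (2.57%, 1.70 to 3.72), beside 7.31% of all PU.1 peaks of PU.1+ cells. The share in the flanking windows was 3.09%, and it was 16.4% in the constitutive peaks with CEBPA, a difference of −13.9 points (−15.8 to −11.9). The peaks were selected for lacking CEBPA calls, so this difference describes the choice in sequence. The PU.1+-only peaks without CEBPA held the site at 3.72%. MYB sites (CAACTG or CCGTTG) were present at 3.996% of the 1051 peaks, beside 4.90% of all PU.1 peaks of PU.1+ cells and 4.09% of the PU.1+-only peaks. The constitutive peaks with CEBPA held them at 7.56% (difference −3.56 points, −5.20 to −1.81). GATA sites (AGATAA or TGATAA) were present at 4.38% of the 1051 peaks, less than the 7.61% of flanking windows. Over all PU.1 peaks of PU.1+ cells they were also less frequent than in flanking windows (5.25% against 8.48%). AP-1 sites (TGANTCA) were present at 4.85% of the 1051 peaks, against 2.33% of flanking windows. Over all PU.1 peaks of PU.1+ cells these shares were 3.90% and 2.41%.

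The centres of the PU.1 peaks in both lines lay close together at these regions, although the choice asked for only 1 bp of overlap. The median distance between the centres was 21 bp (quartiles 7 and 42), and 981 of the 1051 (93.3%) were within 100 bp. At the constitutive peaks with CEBPA the median was 25 bp (quartiles 9 and 59) and 88.6% were within 100 bp. Without heights, how strongly PU.1 was recovered in either line cannot be given.

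The nearest ETS site within 100 bp of the PU.1+ centre, found at 700 of the 1051 peaks, was a median of 15.5 bp from the centre in the PU.1+ library and 24 bp from the centre in the PU.1− library. It was nearer the PU.1+ centre at 429 peaks (61.3%) and nearer the PU.1− centre at 251 (35.9%). Searching around the PU.1+ centre favours that centre. With the site nearest the midpoint of both centres, at 693 peaks, the medians were 16.5 and 20.5 bp, and 379 sites (54.7%) were nearer the PU.1+ centre. For the 175 peaks with an ETS1-type site in the central 80 bp the medians were 13.5 and 17.5 bp, and for the 162 with a PU.1-type site 11.5 and 16.5 bp. These peaks were picked by a site around the PU.1+ centre, which again favours that centre, so these medians cannot compare the 2 centres. Per 100 peaks, the 20-bp bins on either side of the centre held 20.2 and 20.5 ETS sites around the PU.1+ centre, and 18.4 and 17.7 around the PU.1− centre.

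**Figure D3:**
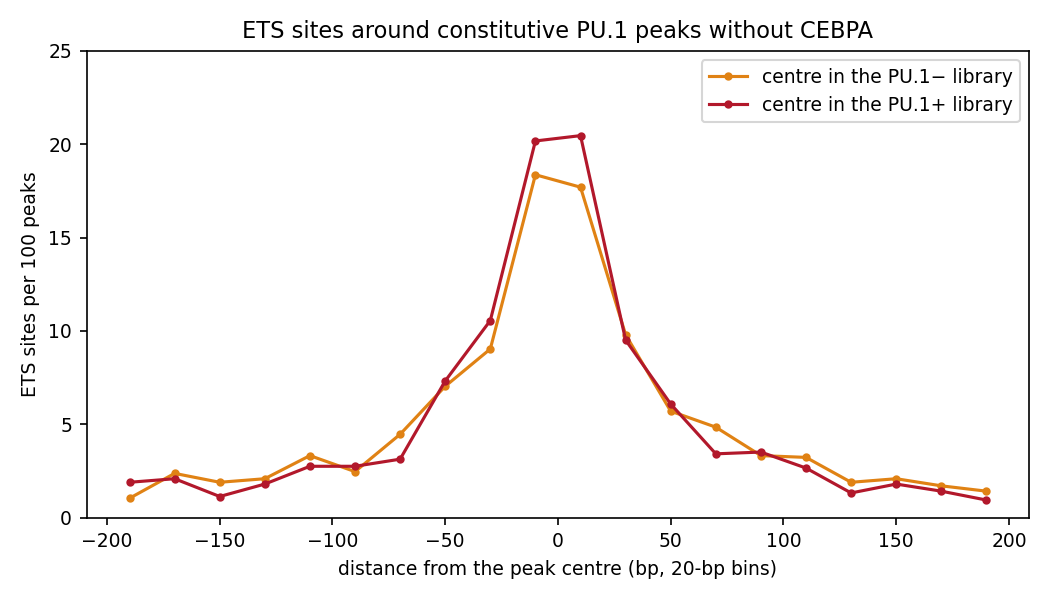
ETS sites per 100 peaks (y axis) in 20-bp bins by distance from the peak centre (x axis, bp) at the 1051 constitutive PU.1 peaks without CEBPA. The red line uses the centre in the PU.1+ library and the orange line that in the PU.1− library. Both peak in the middle bins, at 20.5 and 18.4 sites per 100 peaks.

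The regions lay at promoters more often than the constitutive peaks with CEBPA and the PU.1+-only peaks, and less often than the PU.1−-only peaks. Promoter peaks were those with the centre within 1000 bp of the start of a protein-coding transcript, by the GENCODE annotation. This held for 267 of the 1051 peaks (25.4%, 22.8 to 28.2), beside 12.0% of all PU.1 peaks of PU.1+ cells. A further 418 (39.8%) were within a gene, 93.5% of them in an intron, and 366 (34.8%) were intergenic. The promoter share was 12.4 points (9.38 to 15.4) above that of the constitutive peaks with CEBPA (13.0%) and 14.7 points (12.1 to 17.5) above that of the PU.1+-only peaks without CEBPA (10.7%). It was 28.9 points below that of the PU.1−-only peaks without CEBPA (54.3%, difference −28.9, −32.8 to −24.8). At the 267 promoter peaks the centre lay a median of 17 bp upstream of the start, and 170 (63.7%) were within 200 bp of it.

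**Figure D4:**
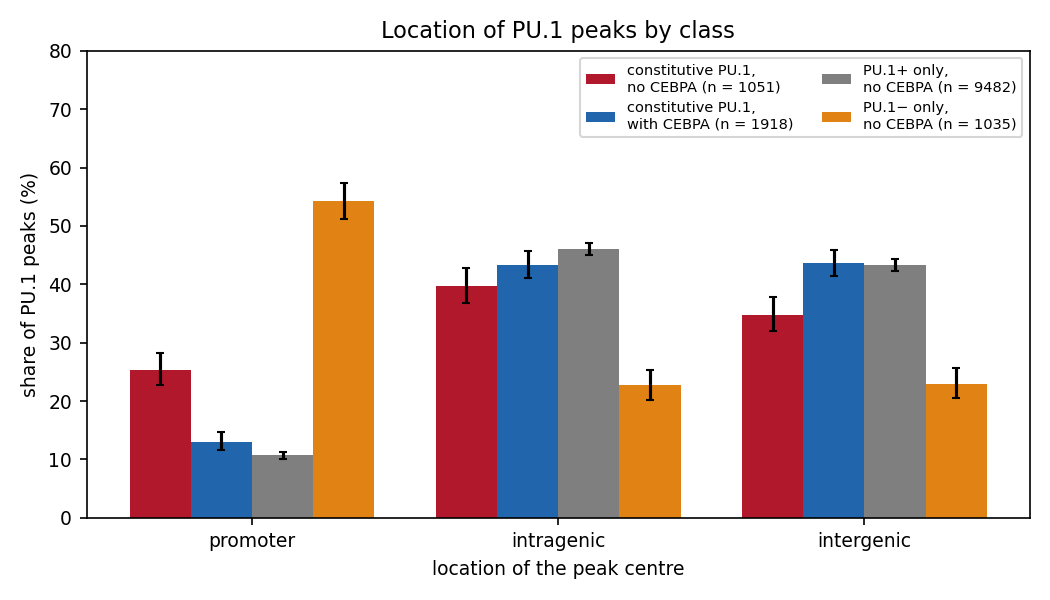
Share of PU.1 peaks (y axis, %) at promoters, within genes and between genes (x axis) for 4 peak classes (bars), with exact 95% intervals. The constitutive peaks without CEBPA are at promoters at 25.4%, between the PU.1−-only peaks (54.3%) and the remaining classes (13.0% and 10.7%).

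Promoter and distal members differed in sequence. The median GC content of the 400 bp was 57% at promoter peaks and 47% at distal peaks, and over all 1051 it was 48.5%, against 46.5% at the constitutive peaks with CEBPA, 45% at the PU.1+-only peaks and 57% at the PU.1−-only peaks. The GC box was present at 13.9% of promoter and 3.44% of distal peaks, a difference of 10.4 points (6.47 to 15.2). Over all PU.1 peaks of PU.1+ cells these shares were 6.38% and 1.00%, and at the PU.1−-only peaks without CEBPA 32.2% and 5.71%. With all locations pooled and the constitutive peaks centred as in the PU.1− library, 6.17% of them held it. The PU.1−-only peaks held it at 20.1%, a difference of −13.9 points for the constitutive peaks (−16.8 to −11.1). ETS1-type sites were at 12.4% of promoter and 18.1% of distal peaks (difference −5.75 points for promoters, −10.2 to −0.595), and PU.1-type sites at 16.9% and 14.9% (difference 1.93 points, −2.89 to 7.40). The excess of ETS1-type sites was also present among distal peaks alone, where it was 9.48 points over the constitutive peaks with CEBPA (6.56 to 12.6) and 12.6 points over the PU.1+-only peaks (9.97 to 15.4). At promoters it was 6.63 points over the PU.1+-only peaks (2.85 to 11.3), but the intervals of the differences from the constitutive peaks with CEBPA (3.56 points, −1.83 to 8.91) and the PU.1−-only peaks (0.972 points, −3.51 to 6.05) included 0. Any ETS site was at 53.2% of promoter and 50.5% of distal peaks. Repeats covered at least 50% of the peak at 18 of the 1051 regions (1.71%), beside 3.81% of all PU.1 peaks of PU.1+ cells. The share was 0.991% at the constitutive peaks with CEBPA, 5.28% at the PU.1+-only peaks and 0.676% at the PU.1−-only peaks.

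The nearest CEBPA peak of either line was a median of 6525 bp away from the edge of these peaks (quartiles 1649 and 20825.5), and 10165 bp away for the PU.1+-only peaks without CEBPA. It was within 200 bp at 77 of the 1051 (7.33%) and within 1000 bp at 192 (18.3%), against 3.11% and 12.5% of the PU.1+-only peaks. A PU.1+-only peak, with or without CEBPA, lay within 10 kb of 350 of the regions (33.3%) and of 38.5% of the constitutive peaks with CEBPA.

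At the limits of the choice, the smallest PU.1 overlaps inside it were 8, 8 and 10 bp, the last at *Nxnl2*. Just outside it, PU.1 peaks of both lines were separated by 0 bp at *Rapgef4*, 1 bp between *Nkx3-2* and *Rab28*, and 4 bp at *Syk*. The nearest CEBPA peaks to regions inside the choice were 0 bp away at *Ggta1*, 2 bp at *Cd14* and 3 bp at *Ebag9*. Just outside it, a CEBPA peak overlapped by 5 bp at *Sdccag8*, 5 bp at *Cdk6* and 10 bp at an unassigned peak on chromosome 15.

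Peaks were assigned to the GENCODE gene at whose promoter or in which they lay and otherwise to the closest flanking genes up to 50 kb away. The study's scheme was followed in its order and its limit, but with this annotation and the 1000-bp window in place of UCSC genes and a promoter database. Distances to a start are those of the peak centre to the nearest transcript start of the gene, which can lie inside the gene. The regions were assigned to 1058 of 21924 protein-coding genes (4.83%), and 78 of the 1051 were assigned to none. Of these genes, 976 had 1 such peak, 75 had 2 and 7 had more. A PU.1+-only peak, with or without CEBPA, was also assigned to 715 of the 1058 genes (67.6%), as to 70.6% of the 1644 genes with a constitutive peak with CEBPA, against 30.6% of all protein-coding genes. A constitutive peak with CEBPA was also assigned to 285 genes, which were 26.9% of the 1058 and 17.3% of the 1644. Assignment is by position and says nothing of expression.

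Most members per gene were counted for *Gm20388*, with 6, but this annotated gene runs over chr8:119910841-124345722 and across others such as *Piezo1*. The 6 peaks in it included ETS1-type sites at 2 and a PU.1-type site at 1. *Ccdc12* had 4, of which the pair centred 781 and 52 bp upstream of internal transcript starts each held a PU.1-type site. *Adgb*, *Celf2*, *Elmo1*, *Fgd2* and *Vps13d* had 3 each. *Elmo1*, whose protein activates the GTPase Rac with DOCK proteins, had a peak 41 bp upstream of its start (chr13:20090356-20090755) with a PU.1-type site 5.5 bp from the centre, and 2 in introns. *Fgd2*, an exchange factor for Cdc42, had a PU.1-type site in the peak 9 bp from its start (chr17:29360752-29361151) and an ETS1-type site in its intronic peak 1156 bp from the start. *Celf2*, an RNA-binding protein, had the composite element in one intron and an ETS1-type site in another, in a peak 18011 bp upstream of the nearest of its starts.

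Genes of the myeloid, signalling and transcription factor groups carried these peaks more often than the 4.83% of all genes. More of them carried PU.1+-only peaks, but that class is larger (9482 peaks without CEBPA against 1051) and reaches more of all genes. Shares of the classes are therefore to be read beside those of all genes. Of 48 haematopoietic signalling genes, 14 (29.2%) had a constitutive peak without CEBPA, 43.8% had one with CEBPA and 89.6% a PU.1+-only peak without CEBPA. For all protein-coding genes the last 2 shares were 7.50% and 26.5%. *Jak2*, the cytokine receptor kinase, had 2, one 574 bp from an internal transcript start and one 41722 bp upstream of the gene with an ETS1-type site. *Jak1* had 1, 26898 bp upstream, with a PU.1-type site. *Vav3*, a guanine nucleotide exchange factor of immune receptor signalling, had 2, one upstream with a PU.1-type and one intronic with an ETS1-type site. *Arhgap15*, a GTPase-activating protein for Rac, had an intronic peak with an ETS1-type site (chr2:43862695-43863094). *Rgs2*, a regulator of G protein signalling, had 1 between genes.

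Of 18 ETS family genes, 7 (38.9%) had such a peak, the highest share of the 12 lists, and none was at a promoter. The same list had a constitutive peak with CEBPA at 33.3% and a PU.1+-only peak at 61.1%. The repressor genes *Erf* and *Etv6*, with *Elf4* and *Elk3*, had 1 each. Introns of *Erf* (chr7:25248794-25249193) and *Elf4* (chrX:48433461-48433860) held ETS1-type sites, and the intergenic peak 25184 bp upstream of *Elk3* a PU.1-type site. *Elk3* lay close to the limit of the choice, with a CEBPA peak 15 bp away. *Fli1* had 2 in introns, with the nearest ETS site 49.5 and 50.5 bp from the centre, outside the central 80 bp. *Elf1* had 1 in an intron (chr14:79519207-79519606), with no ETS site within 100 bp of its centre, and the peaks of both lines shared only 213 of 400 bp there. *Spi1*, the gene of PU.1, and *Cebpa* had none of these peaks, but each had 1 constitutive peak with CEBPA. *Evi2a* had no constitutive peak of either class.

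Of 45 genes of myeloid surface receptors and adhesion, 10 (22.2%) had such a peak, 4 at a promoter. *Csf2ra*, the GM-CSF receptor alpha chain, had 2. One, in an intron and with an ETS1-type site, was centred 376 bp upstream of an internal transcript start (chr19:61227553-61227952). The other, with a PU.1-type site, lay 16441 bp upstream of the gene. The tetraspanin genes *Cd53* and *Cd37* had PU.1-type sites in peaks 6 bp from the start and 323 bp upstream, respectively. *Cd84*, of the SLAM receptor family, had a PU.1-type and a RUNX site in a peak centred 27 bp from an internal transcript start. *Tlr2*, a receptor for bacterial lipoproteins, had 1 peak 17523 bp upstream, 83 bp from a CEBPA peak. Peak centres of both lines were within 51 bp of each other at all of these.

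Of 28 myeloid effector and granule proteins, 6 (21.4%) had such a peak, whereas 50% had a constitutive peak with CEBPA. *Coro1a*, an actin-binding protein of leucocytes, had a PU.1-type site in a peak centred 82 bp upstream of an internal transcript start. *Ncf1*, a cytosolic subunit of the NADPH oxidase, had a peak 6 bp upstream of its start (chr5:134229432-134229831) with no ETS site within 100 bp of the centre. *Laptm5*, a lysosomal membrane protein, likewise had none in the peak 838 bp from its start. *Ltf*, the lactoferrin gene, had a PU.1-type site in a peak past the end of the gene, 7574 bp from an internal transcript start. *Alox5*, the lipoxygenase of leukotriene synthesis, had an ETS site of neither type in an intron. *Mpeg1*, a pore-forming protein of macrophages, also had an ETS site of neither type, in a peak past the end of the gene and 5490 bp from its start.

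Of 73 haematopoietic transcription factor genes, 10 (13.7%) had such a peak and 32.9% a constitutive peak with CEBPA. *Lyl1*, a basic helix-loop-helix factor of stem and progenitor cells, had 1 at its promoter, 100 bp upstream (chr8:84701158-84701557), with no ETS site within 100 bp of the centre. *Myb*, which maintains progenitor growth, and the E-protein gene *Tcf12* had 2 each, and *Tcf4*, *Bach2* and *Egr3* 1 each. *Tcf4* and 1 of the *Tcf12* peaks held a PU.1-type site. At *Bach2*, which encodes a transcriptional repressor, the nearest CEBPA peak was 226919 bp away.

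Of 34 genes of apoptosis and the cell cycle, 5 (14.7%) had such a peak. They included *Casp8*, which encodes a caspase, with 2, and *Bcl2*, *Mcl1* and the cyclin gene *Ccnd2* with 1 each. Both *Casp8* peaks were at transcript starts, and that of *Mcl1* held a PU.1-type site. Of 23 B-lymphoid genes 1 (4.35%), *Cd79b*, had such a peak, beside 4.83% of all protein-coding genes. A PU.1+-only peak without CEBPA was assigned to 47.8% of them, beside 26.5% of all protein-coding genes.

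The lists of ribosomal proteins, respiratory chain, proteasome and splicing factors were at or under the share of all genes. Of 80 cytosolic ribosomal protein genes 1 (1.25%) had such a peak, and of 78 mitochondrial ribosomal protein genes 1 (1.28%), *Mrpl21*. The respiratory chain list had 4 of 83 (4.82%), *Ndufb9*, *Ndufaf6*, *Atp5mpl* and *Atp5o*. The annotated *Atp5o* gene is long (chr16:91684398-91926982) and runs across others, and its 2 peaks lay 100699 and 136682 bp from the start. The proteasome list had 2 of 47 (4.26%), the interferon-inducible *Psmb8* and *Psmg3*, both with a peak at the promoter. Splicing factors had 3 of 66 (4.55%), *Sf3a3*, *Sf3b1* and *Srsf5*. A list of genes is described here by its count beside that of all genes, without a test, and gene length, which sets how many peaks a gene can be assigned, was not accounted for.

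**Figure D5:**
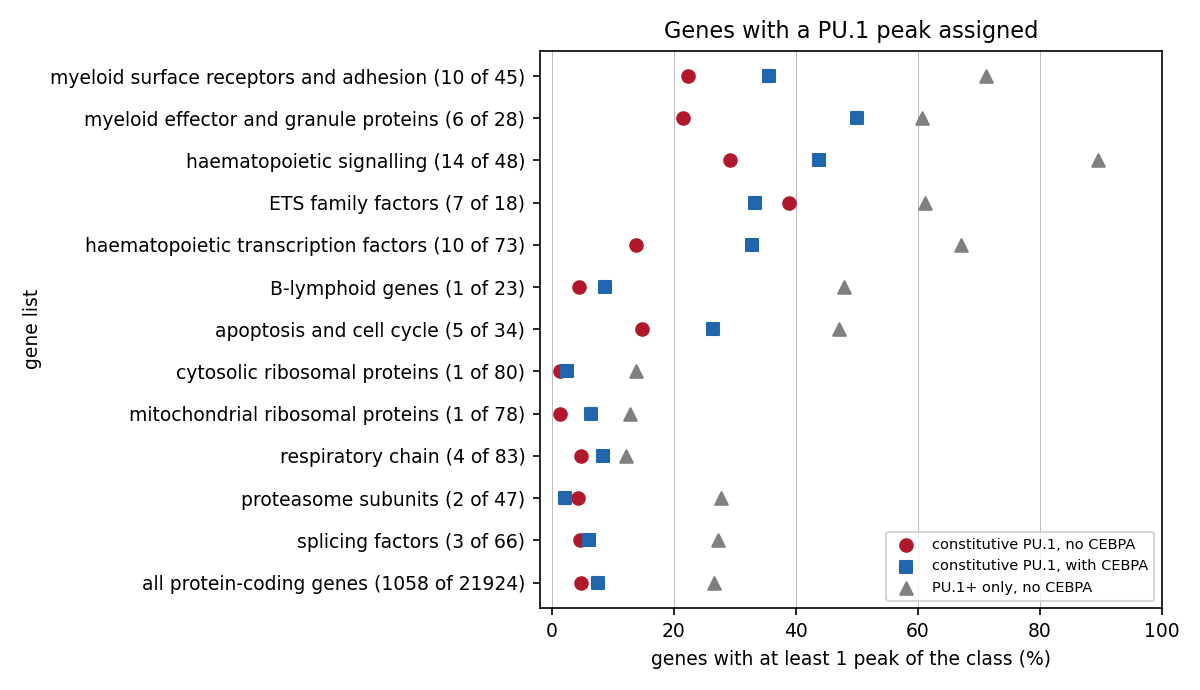
Share of the genes of each list (y axis, with the count for constitutive PU.1 peaks without CEBPA) that had at least 1 peak of a class assigned (x axis, %). Red circles are the constitutive peaks without CEBPA, blue squares those with CEBPA and grey triangles the PU.1+-only peaks without CEBPA. ETS family genes have the highest red value (38.9%), against 4.83% of all protein-coding genes.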

How the data were processed

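PU.1 and CEBPA ChIP-Seq peaks of the empty-vector and PuER clones were used, with 1 library each. The H3K27Ac and IgG libraries were not used here. The authors deposited plain coordinates with no count, score or p-value. Per the submitters' processing notes, Bowtie2 2.0.6 and MACS2 2.0.10 were used with mm10. The calling threshold and how the 400-bp intervals were made are not given in the sources used here. A weakly bound region can be called in one library and missed in another, which affects every class of peaks.

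Overlaps, sites and locations were computed in Python 3.11.15 with pandas 2.3.3, numpy 2.4.6, statsmodels 0.14.6, scipy 1.17.1 and matplotlib 3.10.9, from RefSeq GRCm38 sequence and GENCODE vM21 genes. No p-values were computed. On simulated data, 4000 peak classes and 850 planted sites were recovered at 100%. The members, motifs and gene lists were chosen with earlier results of these data known. Genes were named if the study names them at its ChIP-Seq results, if they had the most members, or if they belonged to a list. From lists with over 6 genes, the 6 with the ETS site nearest a peak centre were named. *Clec7a* and *Ighm* were not found in the annotation and left out, and some named genes are not reported here. Alternatives were the overlap rule, the distance to CEBPA, the centring library, the window, the motif letters, promoter definitions, distal peaks only and the assignment distance.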

Additional observations from a re-analysis of the deposited data

How the results depend on the processing

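Of 140 alternative values for 29 results, 118 stayed within the limit set for them. The limit was the counting interval of the reported value, or a change of 1.5 times for counts and for distances of ETS sites from peak centres. The ETS site share of the constitutive peaks without CEBPA was 47.5% with PU.1− centres, 66.6% in the central 200 bp, 73.0% in the whole peak and 74.5% with a permissive motif. With the permissive motif the difference from co-bound constitutive peaks was 3.12 points (−0.240 to 6.40) and that from PU.1+-only peaks turned to −0.241 points. The latter was 1.93 points with PU.1− centres. The ratio of PU.1-type to ETS1-type sites was 0.724 with PU.1− centres and stayed under 1 in all alternatives except peak centres within 100 bp (1.09). The excess of ETS1-type sites, whose alternatives were chosen after seeing the data, was 5.35 points over co-bound peaks with centres within 100 bp, and over PU.1+-only peaks it was 15.996 points in 200 bp and 16.9 in the whole peak. For CEBP sites the difference from co-bound peaks was −16.7 points with centres within 100 bp, −24.7 in 200 bp, −28.1 in the whole peak and −19.0 with the permissive motif. For RUNX sites it was −6.38 in the whole peak. The promoter share was 34.4% within 2500 bp, 20.6% within 500 bp and 29.8% with the starts of all genes, and its excess over PU.1+-only peaks was 11.9 points with centres within 100 bp. Genes counted rose to 2 for cytosolic ribosomal proteins with centres within 100 bp and to 2 for mitochondrial ribosomal proteins with assignment within 100 kb. The cause was not tested.

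No paired analysis was possible because each antibody and line had 1 library. No replicate was left out and no stricter calling threshold was tried, since there was 1 library each and the lists carry no score. With depth unknown, a peak absent from a list is not shown to be unbound.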
